A study of Rattus norvegicus with 19 samples.

Results

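The genes of cholesterol synthesis, sterol sensing and sterol export were followed in adult rat liver after pregnenolone-16α-carbonitrile (PCN), a steroid that is used in rodents to activate the pregnane X receptor. The set was listed by gene name, with earlier results of these data known. It holds 33 genes, of which 31 had a probe set annotated to that gene alone, out of 13811 such genes on the arrays. They comprised 18 of 19 listed synthesis genes, all 5 sensing genes and 8 of 9 export and handling genes. Hmgcs1 and Soat2 had no such probe set, so their expression was not analysed here. Fasted adult rats (Rattus norvegicus) had received PCN at 100 mg/kg, or the corn oil vehicle alone, in a single injection into the peritoneum, and their livers were taken 8 h later. Both groups had been fasted overnight, so the corn oil animals are fasted and injected controls. Strain, sex and exact age were not given in the labels used here, which call the replicates biological. RNA of each liver was put on 2 Affymetrix array types. The first array type was hybridized with 5 PCN and 5 corn oil samples and measured 28 of the genes with 39 probe sets. The second was hybridized with 5 PCN and 4 corn oil samples, with no array of corn oil replicate 2 analysed here, and measured 7 of the genes with 13 probe sets. The array types share their animals, so a second probe set of a gene on the other type repeats the measurement in the same livers and adds no animal.

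Liver cells build cholesterol from acetyl-CoA by way of mevalonate, isoprenoid diphosphates, squalene and lanosterol. When membranes of the endoplasmic reticulum run low in sterol, the escort protein Scap carries the transcription factor SREBP to the Golgi, where cleavage frees the part that turns on the synthesis genes, and when sterol is plentiful the Insig proteins hold Scap back. Excess cholesterol leaves the hepatocyte into bile through a transporter made of Abcg5 and Abcg8, or onto lipoprotein particles through Abca1, and the liver X receptors turn these exporters on.

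Values are log2 expression as deposited, and a difference is PCN minus corn oil on that scale. A call is an adjusted p below 0.05 from limma, adjusted over all probe sets tested on that array type. Each gene was counted by its brightest probe set on an array type. Arrays carry no read depth, so the number of animals limits precision. Whole liver was measured, so fewer cells of a type and less RNA per cell cannot be told apart. The 8 hepatocyte markers had a summed level of 17.08 to 17.23 (log2) in PCN livers and 17.10 to 17.27 in corn oil livers, with 0 called. Of the markers of 7 other liver and blood cell types, 25 were tested among the probe sets of the first array type and 11 among those of the second, and limma called 0 on either. The array of corn oil replicate 2 on the first type stood apart in RNA quality. The 3′ probe set of actin exceeded the 5′ one by 0.41 to 0.56 in PCN livers, against 2.28 in that corn oil liver and 0.43 to 0.55 in the other corn oil livers. For Gapdh the excess was 0.56 to 0.85 in PCN livers, against 2.02 in that corn oil liver and 0.71 to 0.79 in the others.

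On the first array type 4 of the 28 genes were called higher after PCN and 0 were called lower. They were Abcg5, Abcg8, Insig2 and Sc5d, each about doubled. Over all probe sets tested on that array type, 2.31% were called higher and 0.945% lower, and at an unadjusted p below 0.05 the same number of member genes, 4, passed, beside 17.7% of all probe sets tested. On the second array type 2 of the 7 genes measured, Insig2 and Sc5d, were called higher and 0 lower, beside 3.76% higher and 1.64% lower over all probe sets tested there. At an unadjusted p below 0.05 there were 3 member genes on the second type, beside 27.3% of all probe sets tested there. The genes were chosen with earlier results of these data known, so setting their calls beside these shares is no test of the set. The plot of differences for each gene sets these calls beside the rest. By role, the calls on the first type were 1 of 17 synthesis genes, 1 of 4 sensing genes and 2 of 7 export genes. The median difference was 0.20 over the synthesis genes, -0.06 over the sensing genes and 0.12 over the export genes, beside 0.00 over all probe sets tested.

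**Figure D1:**
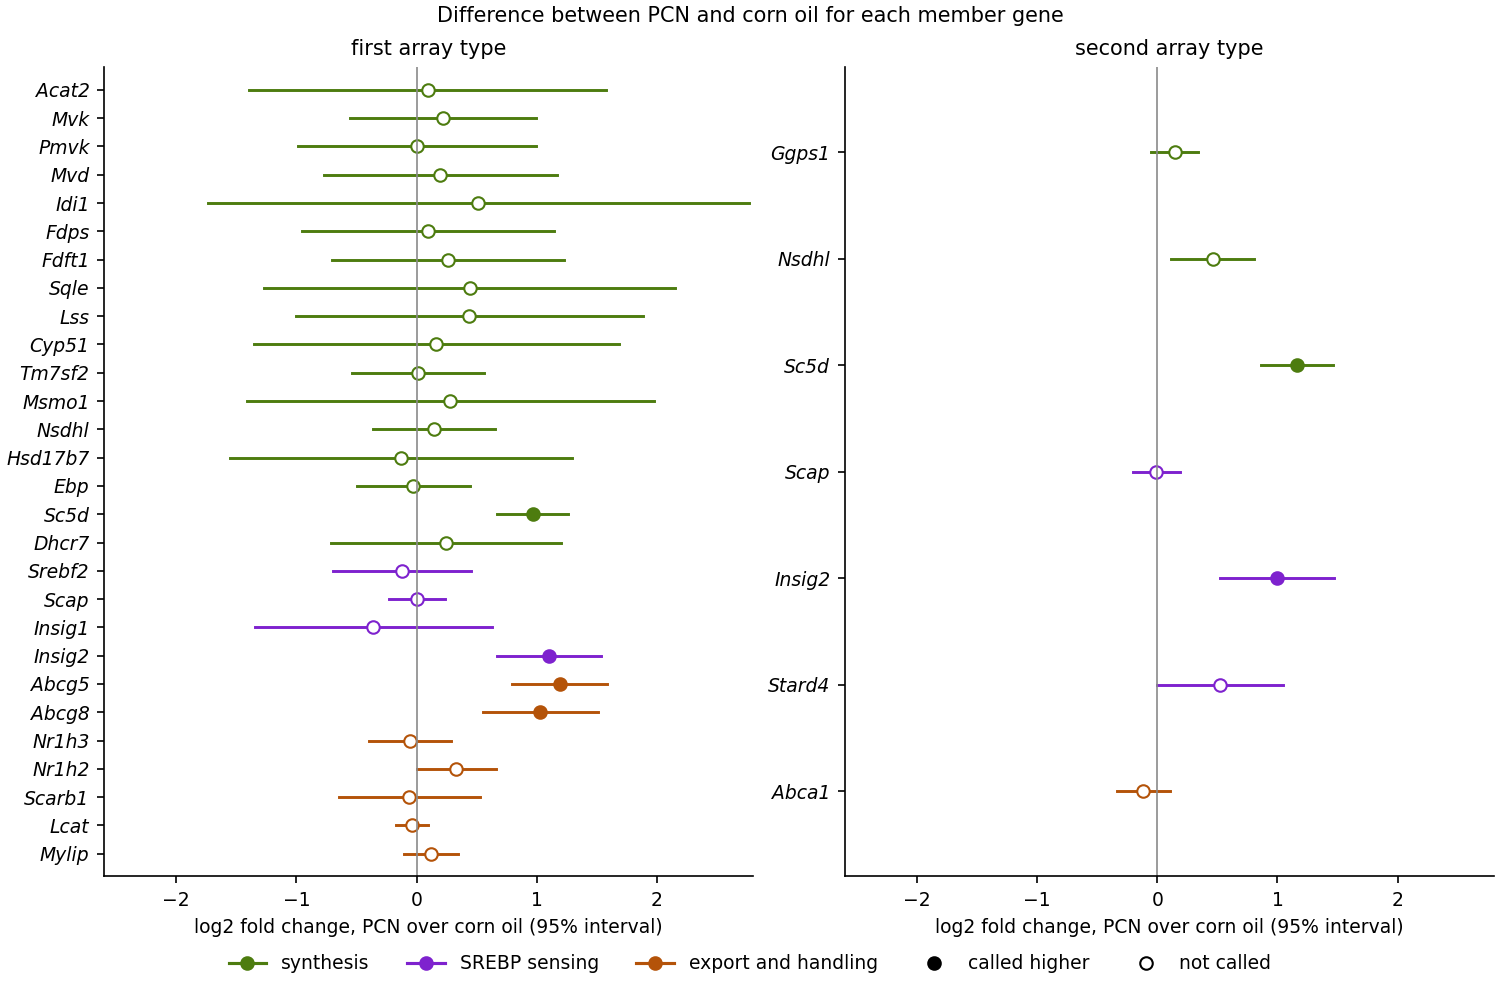
Difference between PCN and corn oil (log2, PCN over corn oil, horizontal axis) for the brightest probe set of each member gene, with lines for the 95% interval, on the first array type (left, 28 genes) and the second (right, 7 genes). Filled points are called and open points are not; Abcg5, Abcg8, Insig2 and Sc5d lie near 1, while most synthesis genes have wide intervals that span 0.

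Groups that did not overlap were counted as well, a rule that more probe sets met than the call. On the first array type, 4 member probe sets had every PCN value above every corn oil value, namely 2 of Sc5d and 1 each of Insig2 and Abcg5, and 0 had every PCN value below. Over all probe sets tested, 3.99% lay wholly above and 2.05% wholly below. On the second type 2 member probe sets, of Sc5d and Insig2, lay wholly above and 0 below, beside 5.06% above and 5.32% below over all tested.

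Abcg5 and Abcg8 are the 2 subunits of the pump that moves cholesterol and plant sterols into bile. Abcg5 read 11.27, 10.99, 11.00, 11.38 and 10.46 in PCN replicates 1 to 5, against 10.04, 9.37, 9.95, 9.75 and 10.04 in corn oil replicates 1 to 5. The lowest PCN liver, replicate 5, was above the highest corn oil liver. The group means were 11.02 ± 0.36 after PCN and 9.83 ± 0.28 after corn oil (SD, n = 5 each), and Abcg5 rose 2.28-fold (95% interval 1.74 to 3.0; limma adjusted p = 0.00485).

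Its partner Abcg8 read 8.77, 8.65, 8.65, 9.33 and 7.97 in PCN replicates 1 to 5, against 7.79, 7.23, 7.78, 7.42 and 8.00 in corn oil replicates 1 to 5. The groups overlapped by a single pair, since PCN replicate 5 lay just under corn oil replicate 5. Abcg8 averaged 8.68 ± 0.49 after PCN and 7.65 ± 0.31 after corn oil (SD, n = 5 each), a 2.04-fold rise (95% interval 1.47 to 2.84; limma adjusted p = 0.0279). The same animals were at the extremes for both subunits: PCN replicate 4 was the highest liver and corn oil replicate 2 the lowest, and PCN replicate 5 was the lowest of its group. The call of Abcg8 lay near the threshold, and leaving out any of 5 arrays took it past 0.05 while the difference stayed between 0.87 and 1.06. Its adjusted p was 0.0692, 0.0623 and 0.0518 without PCN replicates 1, 3 and 4, and 0.0539 and 0.0797 without corn oil replicates 3 and 4. When the fit also held a term that divides the arrays as earlier work on these values had done (PCN replicates 1, 3, 4 and 5 with corn oil replicate 1, against the rest), the adjusted p of Abcg8 was 0.15, and Abcg5 kept its call at 0.0421. That grouping comes from the values and is not given by the labels. It largely follows treatment, and only PCN replicate 2 and corn oil replicate 1 cross over. The fit tells the term and treatment apart through these arrays alone, and with less precision. The difference of Abcg8 was 0.97 with the term, and 1.03 without it.

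Abcg5 and Abcg8 lie head to head in the rat genome, and their promoter windows in RefSeq (assembly GRCr8, 250 bases before to 50 bases after the annotated start) overlap by 295 bases. The window of Abcg5, at chr6:15717686-15717985 on the plus strand, therefore also shows nearly all of the Abcg8 window, which reads on the other strand. It is printed 5′ to 3′ because both called transporter genes share it. Capitals mark matches, on either strand, to AGTTCA (here as its reverse complement TGAACT, 69 bases before the Abcg5 start) and to the CCAAT box (here as ATTGG, 13 bases before it).
Abcg5: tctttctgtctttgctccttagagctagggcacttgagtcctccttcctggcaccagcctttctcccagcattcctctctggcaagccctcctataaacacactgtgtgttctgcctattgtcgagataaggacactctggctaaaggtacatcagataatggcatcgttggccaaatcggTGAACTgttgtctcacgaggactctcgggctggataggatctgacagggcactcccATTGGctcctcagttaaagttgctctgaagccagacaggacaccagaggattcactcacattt

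The other export and handling genes gave no call. Abca1, the transporter that loads cholesterol onto apolipoprotein A-I, was on the second array type with 3 probe sets, whose differences were -0.12, -0.18 and 0.01 (limma adjusted p = 0.467, 0.236 and 0.976). Its brightest probe set read 8.97, 8.92, 8.96, 9.04 and 8.64 in PCN replicates 1 to 5, against 9.21, 8.98, 8.96 and 8.94 in corn oil replicates 1, 3, 4 and 5. The groups overlapped, and the 95% interval of the difference ran from -0.34 to 0.10, which leaves no room for a doubling on this probe set. Nr1h3, the liver X receptor of liver and macrophages, differed by -0.06 (95% interval -0.40 to 0.28). Nr1h2, the broadly expressed liver X receptor, had 9.73, 9.57, 9.88, 9.69 and 9.87 in PCN replicates 1 to 5, against 9.60, 8.81, 9.67, 9.49 and 9.51 in corn oil replicates 1 to 5. Corn oil replicate 2, the array that stood apart in RNA quality, was the lowest by far, and the difference of 0.33 was not called (limma adjusted p = 0.283). A dimmer probe set of Nr1h2 was below the level tested.

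Scarb1, the receptor that takes cholesterol from high-density lipoprotein into the hepatocyte, had probe sets that disagreed mainly on corn oil replicate 2. The brighter one read 10.11, 9.61, 10.19, 10.21 and 10.33 in PCN replicates 1 to 5, against 10.47, 9.02, 10.18, 10.42 and 10.65 in corn oil replicates 1 to 5. Corn oil replicate 2 was again the lowest array, and the difference was -0.06 (SE 0.27, limma adjusted p = 0.929). Without that array the difference was -0.34 (limma adjusted p = 0.228). The dimmer one read 9.38, 8.86, 9.47, 9.40 and 9.36 in PCN replicates 1 to 5, against 9.62, 9.71, 9.64, 9.47 and 9.67 in corn oil replicates 1 to 5. Here corn oil replicate 2 was the highest array and PCN replicate 2 the lowest, and the groups overlapped only where PCN replicate 3 touched corn oil replicate 4. The difference of -0.33 (SE 0.12) was not called as deposited (limma adjusted p = 0.17). It was called lower under quantile normalization (-0.40, limma adjusted p = 0.0477) and cyclic loess (-0.38, limma adjusted p = 0.0478). With each array left out in turn, the difference of the dimmer probe set ran from -0.37 to -0.22. Lcat, the plasma enzyme that esterifies cholesterol on lipoproteins, differed by -0.04 with a 95% interval of -0.17 to 0.09, among the tightest of all members. Mylip, a ubiquitin ligase that marks the low-density lipoprotein receptor for breakdown, differed by 0.12 (95% interval -0.10 to 0.35).

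Among the sensing genes, the 2 Insig proteins, which both retain Scap in the endoplasmic reticulum, gave different results: Insig2 was called and Insig1 was not. The difference between them was not tested. Insig2 on the first array type read 13.01, 13.20, 13.16, 12.53 and 12.59 in PCN replicates 1 to 5, against 11.67, 11.18, 12.32, 11.84 and 11.97 in corn oil replicates 1 to 5. All PCN livers lay above all corn oil livers, with PCN replicate 4 the closest to the corn oil range and corn oil replicate 2 the lowest of all. Insig2 averaged 12.90 ± 0.32 after PCN and 11.80 ± 0.42 after corn oil (SD, n = 5 each), a 2.15-fold rise (95% interval 1.59 to 2.9; limma adjusted p = 0.0127).

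The second array type gave a like picture for Insig2 in the same animals. There it read 12.80, 13.12, 12.71, 12.16 and 12.29 in PCN replicates 1 to 5, against 11.07, 11.95, 11.62 and 11.84 in corn oil replicates 1, 3, 4 and 5. The groups did not overlap, and PCN replicate 2 was again the highest and PCN replicate 4 the lowest of the PCN livers. The difference was 0.996 (95% interval 0.53 to 1.47; limma adjusted p = 0.0284). This call too lay near the threshold and was lost without any of 5 arrays, with differences of 0.81 to 0.996: the adjusted p was 0.0687, 0.0548 and 0.0642 without PCN replicates 1, 2 and 3, and 0.0729 and 0.0816 without corn oil replicates 1 and 4. Cyclic loess brought the difference on the second type to 0.63 (adjusted p = 0.0684), while Insig2 on the first type kept its call under every setting run.

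Insig1, itself a target of SREBP, read 11.30, 9.82, 10.93, 12.79 and 11.52 in PCN replicates 1 to 5, against 11.81, 12.53, 10.90, 11.27 and 11.65 in corn oil replicates 1 to 5. The groups overlapped fully, and PCN replicate 2 and PCN replicate 4 were the lowest and the highest arrays of all 10. Its difference was -0.36 (95% interval -1.35 to 0.63; limma adjusted p = 0.728), an interval that takes in falls and rises alike. Where Insig1 was highest, in PCN replicate 4 and corn oil replicate 2, Insig2 was at the lowest value of its own group. With group means removed, the pairwise correlations among the 4 sensing genes of the first type had a median of 0.03 and a lowest value of -0.85, over 10 arrays.

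The remaining sensing genes were not called. Srebf2, which encodes the SREBP form that drives cholesterol synthesis, read 10.03, 9.59, 9.93, 10.97 and 10.24 in PCN replicates 1 to 5, against 10.02, 11.00, 9.74, 10.25 and 10.38 in corn oil replicates 1 to 5. Its highest arrays were corn oil replicate 2 and PCN replicate 4, and its difference was -0.12 (95% interval -0.70 to 0.45). A dimmer probe set of Srebf2 was below the level tested. Scap differed by 0.00 (95% interval -0.23 to 0.24) on the first array type, and the second type gave -0.01 (95% interval -0.21 to 0.19).

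Stard4, a soluble carrier that moves cholesterol between membranes, was on the second array type only. Its brightest probe set read 9.23, 8.51, 8.54, 9.75 and 8.62 in PCN replicates 1 to 5, against 8.78, 8.12, 8.45 and 8.28 in corn oil replicates 1, 3, 4 and 5. PCN replicates 4 and 1 were above all corn oil livers and the other PCN livers were within the corn oil range. The difference was 0.52 (SE 0.24; limma adjusted p = 0.184). A further probe set gave 0.53 (adjusted p = 0.169) and the dimmest gave -0.04 (adjusted p = 0.767).

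**Figure D2:**
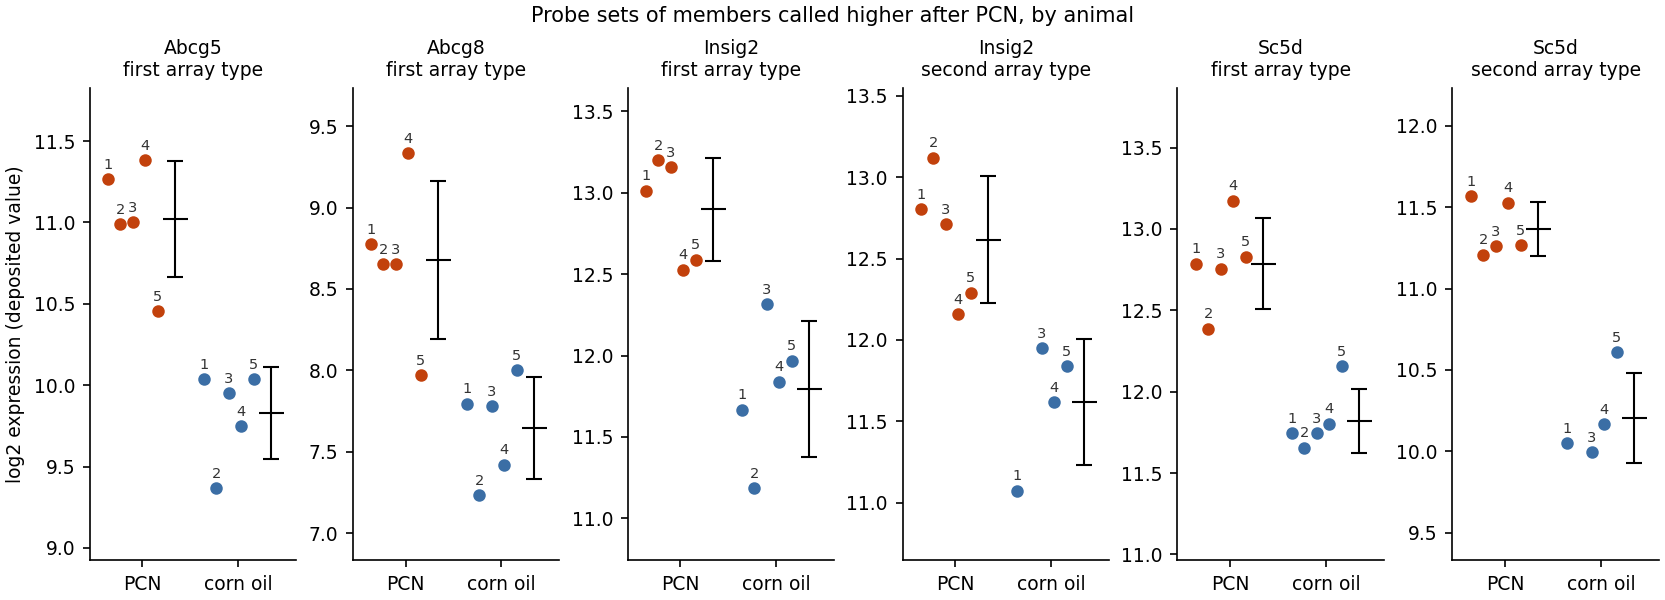
Deposited log2 expression (vertical axis, a separate scale in each panel) of the called probe sets of Abcg5, Abcg8, Insig2 and Sc5d in each liver, PCN left of corn oil, numbered by replicate. Bars are the mean and SD; in each panel but that of Abcg8, where PCN replicate 5 is just below corn oil replicate 5, every PCN point lies above every corn oil point.

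Sc5d, the desaturase that turns lathosterol into the direct precursor of cholesterol, was the only synthesis gene called on either array type. Its brightest probe set on the first type read 12.79, 12.39, 12.75, 13.17 and 12.83 in PCN replicates 1 to 5, against 11.74, 11.65, 11.75, 11.80 and 12.16 in corn oil replicates 1 to 5. The groups did not overlap, and each was narrow beside those of the other synthesis genes. Sc5d averaged 12.79 ± 0.28 after PCN and 11.82 ± 0.19 after corn oil (SD, n = 5 each), a 1.95-fold rise (95% interval 1.59 to 2.40; limma adjusted p = 0.0032).

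Another Sc5d probe set of the first type read 12.26, 11.89, 12.14, 12.45 and 12.20 in PCN replicates 1 to 5, against 10.74, 11.85, 11.39, 11.48 and 11.78 in corn oil replicates 1 to 5. All PCN livers were again above all corn oil livers, but PCN replicate 2 and corn oil replicate 2 nearly touched. The difference was 0.74 (SE 0.19) and just missed the call (limma adjusted p = 0.053), and leaving out PCN replicate 2 (0.0458), corn oil replicate 1 (0.0456) or corn oil replicate 2 (0.0291) brought it under the threshold. On the second array type Sc5d read 11.57, 11.21, 11.26, 11.53 and 11.27 in PCN replicates 1 to 5, against 10.05, 9.99, 10.16 and 10.61 in corn oil replicates 1, 3, 4 and 5. These groups did not overlap either, and the rise was 2.24-fold (95% interval 1.82 to 2.76; limma adjusted p = 0.00202). The called Sc5d probe sets kept their calls under every setting run.

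The other 16 synthesis genes of the first array type were not called, and 14 of them had a difference above 0, from 0.00 for Pmvk to 0.52 for Idi1, though without PCN replicate 4 all but Sc5d of the 17 synthesis genes were below 0. Hsd17b7 and Ebp, which act on the methyl groups and the double bond of the sterol ring, were below 0 at -0.13 and -0.03. Most of these genes had wide intervals, set by the differences among livers of the same group. Idi1, the isomerase that makes the 2 building blocks of isoprenoids interchangeable, read 10.85, 6.99, 9.11, 12.70 and 10.32 in PCN replicates 1 to 5, against 10.42, 11.65, 6.66, 8.87 and 9.79 in corn oil replicates 1 to 5. Its values spanned a 65.8-fold range over the 10 arrays, with both groups holding high and low livers. The difference of 0.52 (95% interval -1.73 to 2.76; limma adjusted p = 0.833) therefore covered a large fall as well as a large rise.

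Sqle, the squalene epoxidase, read 10.29, 7.67, 8.87, 12.04 and 9.73 in PCN replicates 1 to 5, against 9.75, 11.08, 7.31, 8.66 and 9.58 in corn oil replicates 1 to 5. Msmo1, which begins the removal of methyl groups from lanosterol products, read 11.48, 8.92, 10.35, 13.09 and 11.46 in PCN replicates 1 to 5, against 11.42, 12.58, 8.64, 10.28 and 10.97 in corn oil replicates 1 to 5. The order of the livers was nearly that of Idi1 in both genes: PCN replicate 4 and corn oil replicate 2 were the highest, and corn oil replicate 3 and PCN replicate 2 the lowest. The difference was 0.44 (SE 0.78) for Sqle and 0.28 (SE 0.78) for Msmo1, and the ranges were 26.4-fold and 21.8-fold.

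This order ran through the pathway, as the map of synthesis genes by animal shows. PCN replicate 4 was the highest of the 10 arrays for 15 of the 17 synthesis genes and among the 2 highest for all 17. Corn oil replicate 2 was among the 2 highest for 16, and Sc5d, for which it was the lowest array on the brightest probe set, was the exception. On the dimmer Sc5d probe set of the first type, corn oil replicate 2 was instead the highest corn oil array, at 11.85. PCN replicate 2 was among the 2 lowest for 15 genes and corn oil replicate 3 for 11. Averaged over the 17 genes, the deviation from each gene's mean was 0.29, -1.16, -0.39, 1.70 and 0.12 in PCN replicates 1 to 5, against 0.20, 1.05, -1.17, -0.61 and -0.05 in corn oil replicates 1 to 5. Each group thus held a liver more than 1 log2 unit above and another more than 1 log2 unit below the genes' means.

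**Figure D3:**
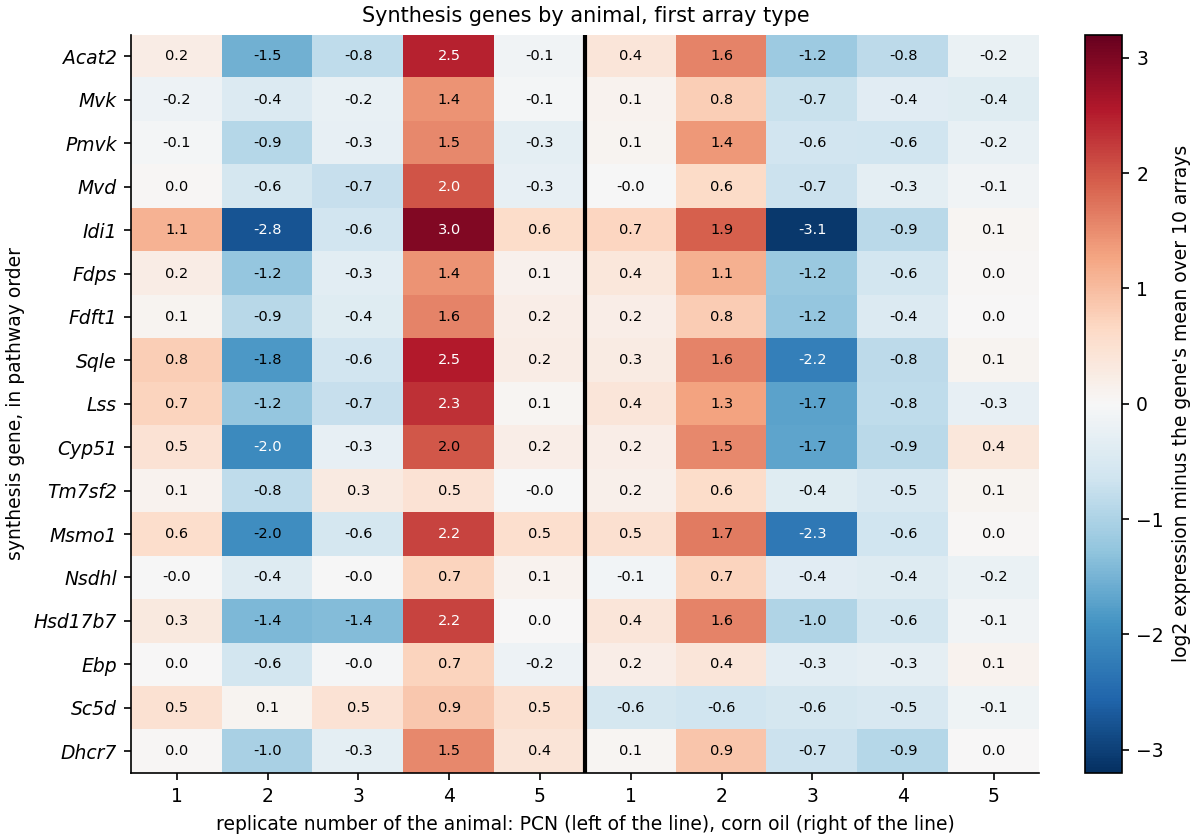
Log2 expression of the 17 synthesis genes of the first array type (rows, in pathway order), less each gene's mean over the 10 arrays, in each liver (columns, PCN left of the line and corn oil right of it). PCN replicate 4 and corn oil replicate 2 are high and PCN replicate 2 and corn oil replicate 3 low through most of the pathway; the row of Sc5d instead divides by treatment.

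The RNA quality of the high arrays differed. PCN replicate 4 had an actin 3′ excess of 0.49 and a Gapdh excess of 0.70, within the range of the other PCN livers, whereas corn oil replicate 2 had 2.28 and 2.02. The part of RNA quality in the high synthesis values of corn oil replicate 2 was not tested. The sign of the uncalled synthesis differences turned on single arrays. Without corn oil replicate 2 all 17 synthesis genes had a difference above 0, with a median of 0.49, and without PCN replicate 2 the count was again 17, with a median of 0.49. Without PCN replicate 4, however, 16 of 17 were below 0, with a median of -0.16, and without corn oil replicate 3 there were 11 below 0, with a median of -0.08. With the term that divides the arrays, 16 of 17 were below 0 as well, with a median of -0.36, and 13 of 17 with that term and no corn oil replicate 2. In each of these settings 1 synthesis gene, Sc5d, was called. Idi1 differed by 1.06 without corn oil replicate 2 (limma adjusted p = 0.58) and by -0.16 without PCN replicate 4, and was called in neither case. The called genes kept their calls without corn oil replicate 2: the difference was 1.08 for Abcg5, 0.93 for Abcg8, 0.95 for Insig2 and 0.92 for Sc5d, with adjusted p = 0.00604, 0.0425, 0.0112 and 0.00594 from limma. For Scarb1 the difference of the brighter probe set without that array was -0.34 (limma adjusted p = 0.228), and for Nsdhl it was 0.35 (limma adjusted p = 0.312).

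The spread between livers of the same group was large for synthesis genes. The median SD within groups was 0.88 over the 17 genes, beside 0.17 over all probe sets tested, and 0.86 without corn oil replicate 2. The SD lay above the 95th percentile of all tested probe sets for 15 of the 17 genes and above the 99th for 12. Ebp, at the percentile of 94.0, and Sc5d, at 76.1, were the exceptions. Besides those named, the range over the 10 arrays was 16.5-fold for the lanosterol synthase Lss, 16.3-fold for the lanosterol demethylase Cyp51, 16.2-fold for the thiolase Acat2 and 12.2-fold for Hsd17b7. It was 7.14-fold for the squalene synthase Fdft1, 6.70-fold for the decarboxylase Mvd, 6.32-fold for the farnesyl diphosphate synthase Fdps and 5.98-fold for Dhcr7, the reductase of the final step. The kinases Pmvk and Mvk spanned 5.45-fold and 4.47-fold, and the late enzymes Tm7sf2, Ebp and Nsdhl 2.66-fold, 2.45-fold and 2.21-fold. A wide spread was not limited to synthesis genes. Of the 4 sensing genes of the first type, the SD of Insig1 lay at the percentile of 99.3 and that of Srebf2 at 96.5. Insig2 was at 92.6 and Scap at 39.0.

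**Figure D4:**
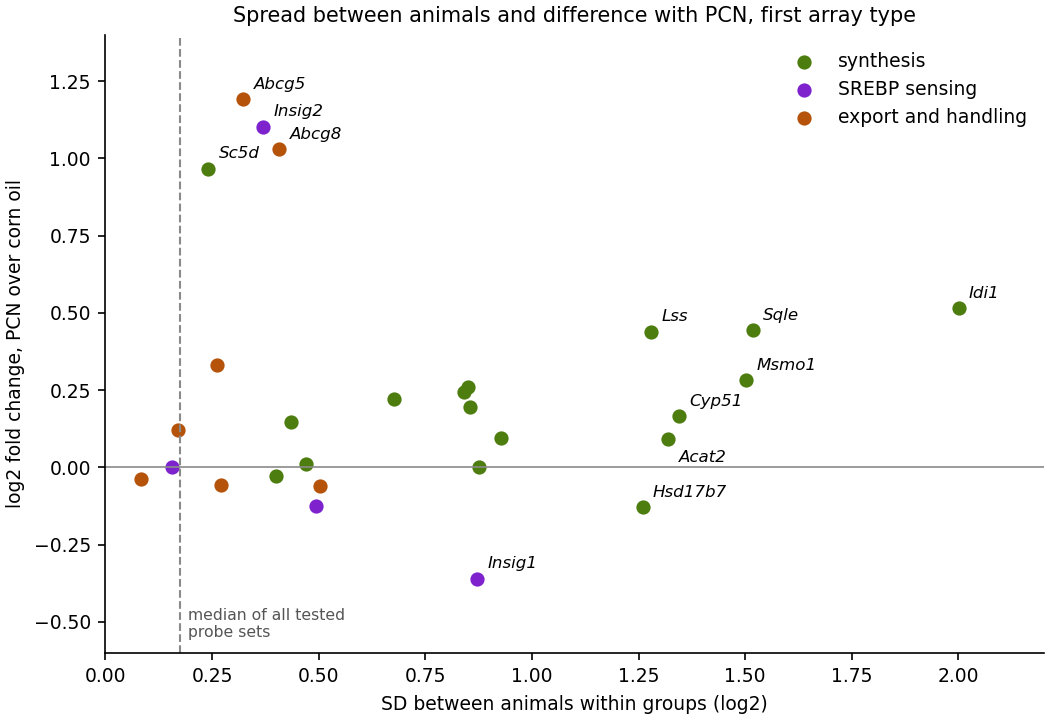
Difference between PCN and corn oil (vertical axis, log2) against the SD between livers of the same group (horizontal axis, log2) for the 28 member genes of the first array type, coloured by role, with the dashed line at the median SD of all tested probe sets (0.17). The called genes Abcg5, Insig2, Abcg8 and Sc5d lie at the upper left, while Idi1, Sqle and Msmo1 have the widest spread and differences that were not called.

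With the group means removed, the synthesis genes varied together from liver to liver. Over the 136 pairs of synthesis genes and 10 arrays, the median Pearson correlation was 0.92 (Spearman 0.90) and the lowest was 0.35, with all 136 above 0. Without PCN replicate 4 and corn oil replicate 3, the arrays farthest from the median, the median was 0.87 (Spearman 0.88), the lowest was -0.34 and 132 of the pairs were above 0. PCN replicate 2 and corn oil replicate 2, with mean deviations of -1.16 and 1.05, stayed in that check. Without corn oil replicate 2 alone the median was 0.91 (Spearman 0.88). The median over pairs of 2000 tested probe sets drawn from the same arrays was 0.03. Without Sc5d the lowest of 120 pairs was 0.61, and 0.57 with PCN replicate 4 and corn oil replicate 3 also left out. The 7 export genes of the first type had a median correlation of 0.23. All of these describe the same 10 livers, each contributing a single array to every gene.

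Genes with several probe sets mostly gave the same reading of this pattern. An exception was the dimmest probe set of Mvk. Others were the place of corn oil replicate 2 on further probe sets of Mvk, Lss and Sc5d, and the sign for Hsd17b7. The other Idi1 probe set ranged 29.1-fold and differed by 0.33, the other Cyp51 probe set ranged 28.2-fold and differed by 0.08, and the other Fdft1 and Lss probe sets differed by 0.34 and 0.47. On the dimmer Lss probe set corn oil replicate 2 read 9.64, just under PCN replicate 1 at 9.69. Of the further Mvk probe sets, the one with a range of 4.09-fold differed by 0.25, and corn oil replicate 2 read 8.02 on it. The other corn oil livers read 8.00 to 8.63 there, and corn oil replicate 2 read 9.64 on the brightest Mvk probe set. The dimmest Mvk probe set, at a mean of 6.74 in both groups, ranged only 1.25-fold. It lay just above the lowest level tested, 6.67. For Hsd17b7 the probe sets differed in sign, with -0.13 for the brighter and 0.28 for the dimmer, and neither was called.

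On the second array type Nsdhl, a dehydrogenase that removes methyl groups from the sterol ring, read 11.81, 11.53, 11.64, 12.35 and 11.68 in PCN replicates 1 to 5, against 11.20, 11.36, 11.25 and 11.56 in corn oil replicates 1, 3, 4 and 5. PCN replicate 2 alone lay within the corn oil range. The difference was 0.46 (95% interval 0.12 to 0.80), which was not called over the whole table (limma adjusted p = 0.0969; unadjusted p = 0.0127). On the first type, where corn oil replicate 2 was measured too and was the highest array, Nsdhl differed by 0.15 (SE 0.23; limma adjusted p = 0.787). Ggps1, which makes the lipid anchor for protein prenylation on a side branch, was on the second type alone and differed by 0.14 (limma adjusted p = 0.315). Its brightest probe set had means of 5.63 after PCN and 5.49 after corn oil, near the lowest level tested, 5.51. The other 2 Ggps1 probe sets were below that level.

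Promoter windows from RefSeq (GRCr8) were found for 27 of the 33 listed genes, Hmgcs1 among them. The CCAAT box, bound by NF-Y, was in 13 of 16 synthesis windows, 3 of 4 sensing windows and 4 of 7 export windows, against 37.5% of all 33469 windows. GGGCGG, the Sp1 box, was in 13 of 16, 3 of 4 and 2 of 7, against 33.1% of all. The sterol element TCACNCCAC was in 0 of the 27 windows and 1.12% of all, which says only that these letters are not there. The nuclear receptor half-site AGTTCA was in 0 of 16 synthesis windows, 1 of 4 sensing windows and 4 of 7 export windows, against 14.5% of all, and AGGTCA was in 3 of 16, 0 and 0, against 16.2%. The E-box CACGTG was in 1 of 16, 2 of 4 and 1 of 7, against 6.42%. Direct repeats of AGGTCA with 4 bases between them and of AGTTCA with 3 between them, each of which contains its half-site, were in 0 of the 27 windows. The windows of Abcg5 and Abcg8 hold the same AGTTCA and the same CCAAT, so both export counts of 4 windows include a shared site, and the 4 windows with AGTTCA hold 3 distinct sites. Matches were read on both strands and none is a shown site of binding. The windows of Insig2, Hmgcs1, Srebf2 and Nr1h3 lay wholly inside the annotated span of their gene. Without these 4, AGTTCA was in 0 of 2 sensing windows and 3 of 6 export windows, and CCAAT in 12 of 15 synthesis windows, 1 of 2 and 4 of 6.

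The windows of Sc5d, which divided by treatment, and of Idi1 and Msmo1, which divided the livers within both groups, are printed for comparison. They lie at chr8:51538228-51538527 on the minus strand, chr17:66547475-66547774 on the minus strand and chr16:29746863-29747162 on the plus strand, and capitals mark CCAAT (or ATTGG on the other strand), GGGCGG (or CCGCCC) and CACGTG. The Sc5d window was the synthesis window with CACGTG, and it held CCAAT and GGGCGG as well. CACGTG was also in the windows of Insig1, Scap and Abca1, which were not called. Idi1 had the CCAAT box in 2 places, and Msmo1 had both CCAAT and GGGCGG in 3 places each.
Sc5d: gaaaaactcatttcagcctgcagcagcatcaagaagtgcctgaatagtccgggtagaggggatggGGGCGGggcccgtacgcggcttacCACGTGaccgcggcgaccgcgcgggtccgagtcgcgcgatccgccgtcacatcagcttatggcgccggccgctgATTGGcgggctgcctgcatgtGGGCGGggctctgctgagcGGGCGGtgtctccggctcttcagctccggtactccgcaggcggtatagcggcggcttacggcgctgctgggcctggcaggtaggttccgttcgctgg
Idi1: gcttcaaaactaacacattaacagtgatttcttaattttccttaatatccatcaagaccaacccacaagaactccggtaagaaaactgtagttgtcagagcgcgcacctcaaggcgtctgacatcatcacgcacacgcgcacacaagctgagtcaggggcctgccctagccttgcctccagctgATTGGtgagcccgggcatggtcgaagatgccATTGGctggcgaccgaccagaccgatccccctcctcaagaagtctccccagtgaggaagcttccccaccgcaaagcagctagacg
Msmo1: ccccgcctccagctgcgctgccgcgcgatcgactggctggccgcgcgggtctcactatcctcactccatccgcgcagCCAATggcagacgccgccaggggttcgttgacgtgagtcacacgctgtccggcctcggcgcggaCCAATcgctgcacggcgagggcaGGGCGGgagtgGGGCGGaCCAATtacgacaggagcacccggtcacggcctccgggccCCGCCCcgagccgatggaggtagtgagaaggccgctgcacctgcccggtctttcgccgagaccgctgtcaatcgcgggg

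A list of 48 other genes of cholesterol, lipoprotein and bile acid handling, also chosen with earlier results known, was counted alongside. Of these genes, 32 were measured on the first array type and 30 tested there. Limma called 0 of these higher and 0 lower, with 2 at an unadjusted p below 0.05, a lowest adjusted p of 0.0618 and a median difference of -0.02. On the second type 8 were tested, with 0 called, 1 at an unadjusted p below 0.05, a lowest adjusted p of 0.112 and a median of -0.05.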

How the data were processed

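Adult rat liver RNA from 5 PCN and 5 corn oil animals had been put on 2 Affymetrix array types, in all 19 arrays. The deposited values are log2 expression, 1 per probe set and array, and the base was inferred from their range. The submitters' processing notes name MAS5 without a version, and background correction, summarization and normalization are not given in the sources used here, so an effect of scaling was checked by alternatives only. The first array type held 15923 probe sets (12789 with a single annotated gene, 312 with several, 2822 with none) and the second 15333 (7570, 100 and 7663). Symbols were updated through gene identifiers with the RefSeq annotation of GRCr8 (12754 and 7530 matched).

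The 57 control probe sets of each type and those whose mean over the arrays fell under the 30th percentile (6.67 and 5.51) were left out, leaving 11106 and 10693, which kept 37 of 39 and 11 of 13 member probe sets. Each table was fitted alone with limma 3.58.1 in R 4.3.3, treatment only, with an intensity trend, two-sided tests and Benjamini-Hochberg adjustment over that table at a threshold of 0.05. The array number per group limits precision. On simulated data with 200 probe sets changed by 1 log2 unit, 89.5% of the changed ones were recovered among 11106 on the first type and 96% among 10693 on the second. Of the calls there, 4.28% and 5.88% were false. The changed probe sets were drawn from all tested ones and the noise was independent between probe sets. These shares therefore do not carry over to the synthesis genes, whose spread was wide and shared. Alternatives were other filters, scalings, a pseudocount of 16, other variance models, a replicate block, a term for 2 sets of arrays and leaving out each array. The term with corn oil replicate 2 left out, the spread and correlations without that array, the summary of synthesis genes with each array left out, and the motif counts without windows inside a gene, were added after seeing the data. Residual correlations of same-numbered PCN and corn oil arrays ran from -0.30 to 0.28 on the first type and from 0.02 to 0.20 on the second. They exceeded those with every other corn oil array for replicates 1 and 3 on the first type and for replicate 3 on the second. For the other replicates they did not. With this mixed outcome the numbers were not taken as pairs, and the replicate block was run as an alternative only.

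The members, the roles and the other lists were chosen with earlier results of these data known. All members may be named with values. Of the other pathway genes and cell type markers, only called genes would be named. The Insig pair and the Abcg pair are always described together.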

Additional observations from a re-analysis of the deposited data

Results flagged for a closer look

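In 104 groups of member probe sets and RNA quality values, 10 had an extreme array whose gap to its nearest neighbour was a large share of the group's range, and chance gives about 1 in 20 groups. PCN replicate 4 stood above the other PCN arrays of the first type for Mvk (10.31 against 8.42 to 8.80, a gap of 0.803 of the range), for Mvd (10.57 against 7.83 to 8.59, a gap of 0.723) and for the dimmer Hsd17b7 probe set (10.75 against 7.72 to 8.43, a gap of 0.764). Corn oil replicate 2 stood above the other corn oil arrays for Nsdhl (12.13 against 10.99 to 11.31, a gap of 0.717). It stood below them for Nr1h2 (8.81 against 9.49 to 9.67, a gap of 0.785) and for the brighter Scarb1 probe set (9.02 against 10.18 to 10.65, a gap of 0.712). The same array had the high 3′ excess of actin (2.28 against 0.43 to 0.55, a gap of 0.936) and of Gapdh (2.02 against 0.71 to 0.79, a gap of 0.938). PCN replicate 2 was low for the dimmer Scarb1 probe set (8.86 against 9.36 to 9.47, a gap of 0.817) and high for Ggps1 on the second type (5.97 against 5.52 to 5.57, a gap of 0.884).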

How the results depend on the processing

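Of 1066 recomputed differences of the 48 tested member probe sets, 15 lost a call (Abcg8 on the first array type and Insig2 on the second), 8 gained one (the second Sc5d probe set and the dimmer Scarb1 probe set, both on the first type), and 0 called differences changed sign. Differences not called changed sign 132 times, in 31 probe sets whose differences were at most 0.52. Synthesis genes called higher stayed at 1 on either type under every setting, and 0 member genes of any role were called lower by their brightest probe set. Export genes called higher on the first type were 2, but 1 with the replicate block, with the term for 2 sets of arrays and with that term leaving out corn oil replicate 2, and 1 to 2 when each array was left out. Sensing genes called higher on the second type were 1, but 0 with cyclic loess and with the replicate block, and 0 to 1 when each array was left out. With the replicate block the adjusted p was 0.0744 for Abcg8 and 0.0769 for Insig2 on the second type. Over all probe sets of the first type, 256 were called higher, against 768 with array weights, 86 with the term and 149 with the term without corn oil replicate 2 (107 to 343 leaving out each array). There 105 were called lower, against 181 with quantile normalization, 168 with cyclic loess, 176 with trimmed mean scaling, 62 with the replicate block, 283 with array weights and 161 with the term without corn oil replicate 2 (43 to 106). On the second type 402 were called higher, against 163 with the replicate block and 868 with array weights (69 to 905). There 175 were called lower, against 72 with a common median, 101 with cyclic loess, 478 with trimmed mean scaling, 40 with the replicate block and 607 with array weights (15 to 572). Scaling moved the split of higher to lower calls from that of the deposited values: 247 higher and 181 lower with quantile normalization and 256 and 176 with trimmed mean scaling on the first type, and 518 and 72 with a common median and 397 and 478 with trimmed mean scaling on the second. The median difference over the synthesis genes of the first type, 0.20, ran from -0.16 without PCN replicate 4 to 0.49 without corn oil replicate 2, and was -0.36 with the term for 2 sets of arrays. The cause of these shifts was not tested. Signal over background, the number of livers and, for synthesis genes, the spread between livers limit what could be called.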
